A study of Danio rerio with 24 samples.

Results

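The genes described here are the protein-coding genes of the zebrafish annotation that span more than 300 kb from start to end, with collagens left out. Of 158 such genes, 1 collagen, col14a1a, was set aside, which left 157 of the 32520 genes of the annotation. Counts were held for 154 of them, and all 154 had enough counts to be tested, among 22340 tested genes in all. The other 3 were not analysed here. Their spans run from 300.1 kb to 870.4 kb with a median of 378.9 kb, against a median of 16.6 kb over the protein-coding genes tested. They lie on all 25 chromosomes, 68 on the plus strand and 86 on the minus strand. The rule itself uses no measured value, but it was set with earlier results of these data known.

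Whole zebrafish embryos were sequenced after polyA selection in a study of how ultraviolet B (UVB) acts on wild type embryos and on maternal eevs mutants (Meevs). The enzyme encoded by eevs starts the synthesis of gadusol, a UVB-absorbing sunscreen compound of fish. At 24 h post fertilisation (hpf) embryos of both genotypes were mock exposed or received 450 J of UVB, with no area given for the dose. They were kept in the dark and collected 5 h later, at 29 hpf, or 24 h later, at 48 hpf. The groups were thus wild type mock, wild type UVB, Meevs mock and Meevs UVB at each of 2 times, 8 groups of 3 libraries and 24 libraries in all. The label Meevs names a maternal mutant, and the sources used here give neither the mutation itself nor which alleles the embryos carried. All wild type libraries share 1 prefix in their library names and all Meevs libraries another, each called a series here. The labels do not say what the prefix stands for. Genotype and series thus cannot be told apart.

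An RNA polymerase that starts at a promoter must travel the whole gene, introns included, before a full transcript is released, so a long gene takes longer to transcribe than a short one. UVB joins neighbouring pyrimidines in DNA into dimers, which stop RNA polymerase II on the transcribed strand until they are repaired, and a longer gene offers more places for such a stop. In vertebrates many of the longest genes encode cell adhesion molecules, synaptic proteins, axon guidance receptors and ion channels of neurons.

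Libraries held from 22395870 to 44691629 counts, and the long genes held between 0.103% and 0.472% of them. Libraries of the 2 times separated on a first principal component with 58.98% of the variance, and those of the 2 genotypes on a second with 17.96%. On these components, at 5 h, replicate 3 of Meevs mock and replicate 3 of wild type UVB lay apart from their groups, and at 24 h replicate 1 of wild type UVB and replicate 3 of Meevs UVB did. The targeted gene eevs had between 2 and 84 counts per library. In Meevs it had 2 to 7 counts in mock and 50 to 84 in UVB libraries at 5 h, and 59 to 80 and 12 to 21 at 24 h. In wild type it had 5 to 8 and 7 to 16 at 5 h, and 22 to 25 and 11 to 16 at 24 h. The cause of this pattern was not tested. Since the label names the mother's genotype, the level of eevs checks no label. No label tells whether the replicates are separate clutches, so p-values rest on the spread between these libraries alone, which may be technical. Changes are given as log2 fold changes ± SE from an edgeR quasi-likelihood fit, a gene is called at an edgeR Benjamini-Hochberg adjusted p under 0.05 over all tested genes, and levels are CPM, counts per 1000000 of the TMM-scaled library.

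At 5 h after UVB, the long genes were lower than in mock embryos in both genotypes, and none was called higher. In wild type 62 of 154 fell and the other 92 did not pass, while 6.06% of all tested genes fell and 6.67% rose. In Meevs 116 of 154 fell and 38 did not pass, while 15.3% of all tested genes fell and 19.1% rose. The median log2 fold change of the 154 was -0.42 in wild type and -1.11 in Meevs, which is 74.6% and 46.5% of the mock level, and the median of all tested genes was 0 and 0.05. Of the genes called lower, 11 in wild type and 84 in Meevs had an estimate of 50% of the mock level or lower. Among all 22340 tested genes, 156 and 840 were called lower with such an estimate. Since whole embryos were sequenced, fewer cells of a type and less RNA per cell cannot be told apart in any of these values. Without the libraries that stood apart at 5 h, 69 fell in wild type and 115 in Meevs, and without replicate 1 of wild type UVB the wild type count was 39.

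Across all protein-coding genes tested, the share that fell was higher in each longer class of span. In Meevs at 5 h, 6.65% of genes of up to 10 kb fell, then 10.4% from 10 to 30 kb, 23.3% from 30 to 100 kb, 47.1% from 100 to 200 kb, 65.0% from 200 to 300 kb and 75.3% of those over 300 kb. The same classes in wild type gave 2.67%, 3.91%, 8.75%, 19%, 31.0% and 40.3%. Among the 154 genes themselves the order by span was weak: Spearman's correlation between span and effect at 5 h was -0.20 (wild type) and -0.14 (Meevs), as a description over genes that share their libraries. Within them, 32 (wild type) and 74 (Meevs) of the 94 genes of 300 to 400 kb fell, and among the 28 genes over 500 kb 13 and 17 did. An offset then took away, by construction, a smooth trend of change with gene span in each library. Each point of the trend drew on a share of 0.3 of the tested genes, so at the long end it included shorter genes. With this offset 11 of the 154 were lower and 5 higher in wild type at 5 h, where 913 of all 22340 tested genes were lower and 1405 higher. In Meevs 46 were lower and 25 higher, where 2789 of all tested genes were lower and 4155 higher. The other counts given here are changes against all genes, without regard to span. Under that offset the estimates of some named genes, such as robo1, rbfox1 and macf1a in Meevs at 5 h, lay above 0.

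**Figure D1:**
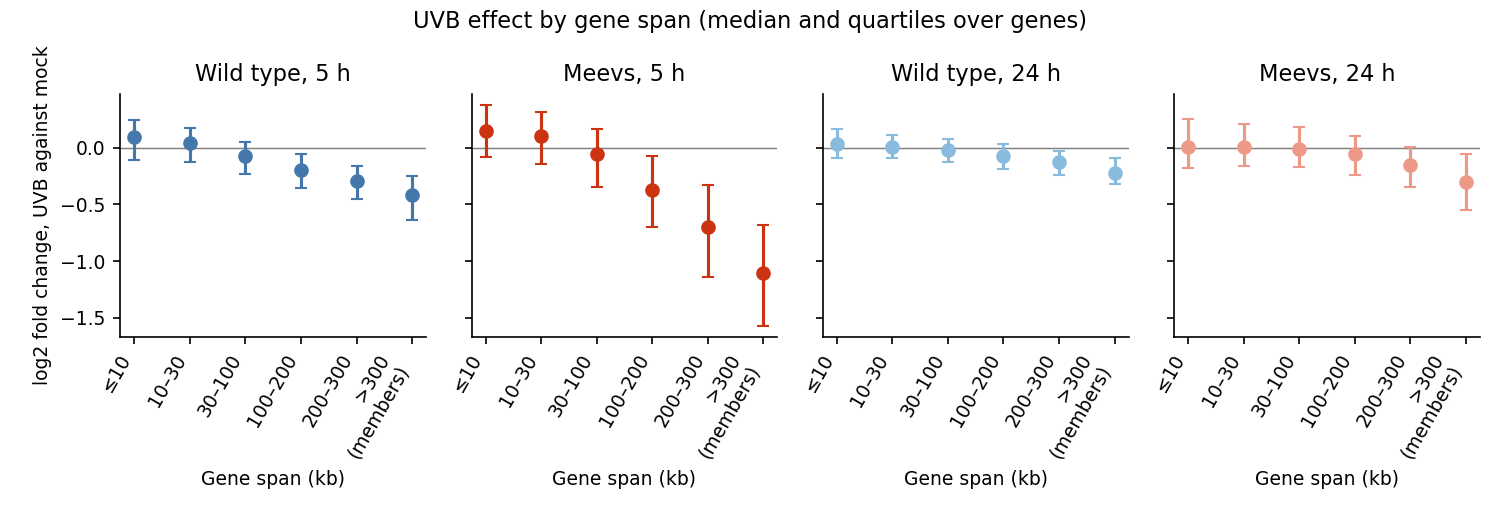
Log2 fold change of UVB against mock (vertical axis) by gene span in kb (horizontal axis) for each genotype and time; points are medians over the protein-coding genes of a class and bars reach from the lower to the upper quartile over genes. At 5 h in Meevs the median goes from 0.15 for genes of up to 10 kb to -1.11 for those over 300 kb, and at 24 h the class over 300 kb is at -0.30.

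The estimates just over and just under the 300 kb limit covered overlapping ranges. Just over the limit, macf1a (300.1 kb) gave -0.39 ± 0.10 in Meevs at 5 h, sorcs2 (300.2 kb) -1.70 ± 0.21 and TMEM8B (300.4 kb) -0.72 ± 0.20. Just under it, lrp8 (299.6 kb) gave -1.04 ± 0.10, syt7b (298.9 kb) -1.35 ± 0.50 and nrxn1a (298 kb) -0.48 ± 0.10.

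The share of all counts that fell on the long genes showed the same order by library. At 5 h it was 0.307% ± 0.0214 (SD, n = 3) in wild type mock and 0.238% ± 0.0141 in wild type UVB embryos. In Meevs it was 0.193% ± 0.0206 in mock and 0.107% ± 0.0042 in UVB embryos. At 24 h the shares were 0.439% ± 0.029 and 0.403% ± 0.0187 in wild type, and 0.276% ± 0.00771 and 0.239% ± 0.0305 in Meevs. At 5 h the UVB libraries lay below all mock libraries of their genotype, and at 24 h they overlapped in both.

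**Figure D2:**
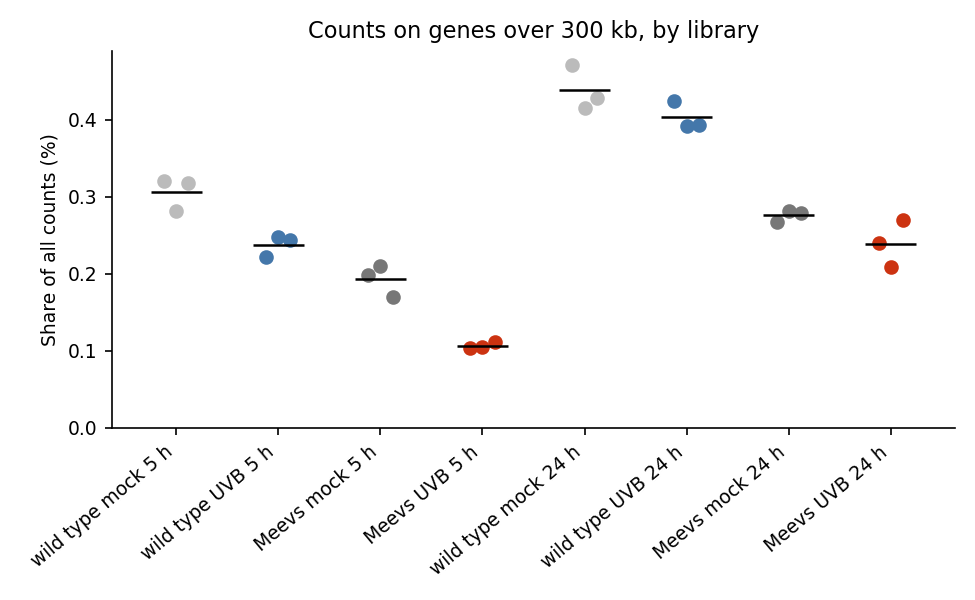
Share of all counts, in percent, that fell on the 154 genes over 300 kb (vertical axis) in each group (horizontal axis); points are the 3 libraries and the bar is their mean. The Meevs UVB libraries at 5 h lie lowest, between 0.103% and 0.111%.

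Counted gene by gene, all 3 UVB libraries lay below all 3 mock libraries at 5 h for 89 of the 154 genes in wild type, where 13.1% of all tested genes did so, and for 121 in Meevs, where 18.6% did. At 24 h this held for 58 in wild type, where 9.88% of all tested genes did so, and for 72 in Meevs, where 17.4% did.

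By their symbols, 136 of the tested long genes could be placed in 16 families of function, and 18 were placed in none. The 18 without a family, of which 12 fell in Meevs at 5 h and 8 in wild type, include macrod2. The largest families were synaptic adhesion proteins with teneurins (14), immunoglobulin superfamily adhesion proteins (13), the cytoskeleton with the dystrophin complex (13) and synaptic scaffolds and vesicle release (12). The immunoglobulin family as counted here includes cntnap2a, a gene related to neurexins. Matrix proteins, with the glycan enzyme gene GALNTL6 among them, numbered 10. Axon guidance molecules, cadherins with catenins, neurotransmitter receptors and transcription regulators followed with 9 each. The synaptic, guidance and receptor families are known mainly from neurons, whereas cytoskeletal, traffic and transcription proteins act in most cells. In Meevs at 5 h each of the 16 families had members that fell and none had a member that rose.

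Genes of the same families that span under 100 kb were read beside them, and the difference between the sets was not tested. Families rest on symbol patterns, but 29 of the long genes were placed by hand, so the sets were not built in quite the same way. In Meevs at 5 h, 104 of the 136 long genes of the families fell with a median of -1.11, whereas of 2866 short genes of the same families 380 fell and 508 rose, with a median of 0.07. In wild type 54 of the 136 fell, with a median of -0.42, against 147 that fell and 96 that rose of the 2866, with a median of -0.04. Of all tested genes, 15.3% fell and 19.1% rose in Meevs, and 6.06% fell and 6.67% rose in wild type. In all 16 families the median of the long genes lay below that of the short ones in Meevs at 5 h, with few short genes for membrane traffic and nuclear import.

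**Figure D3:**
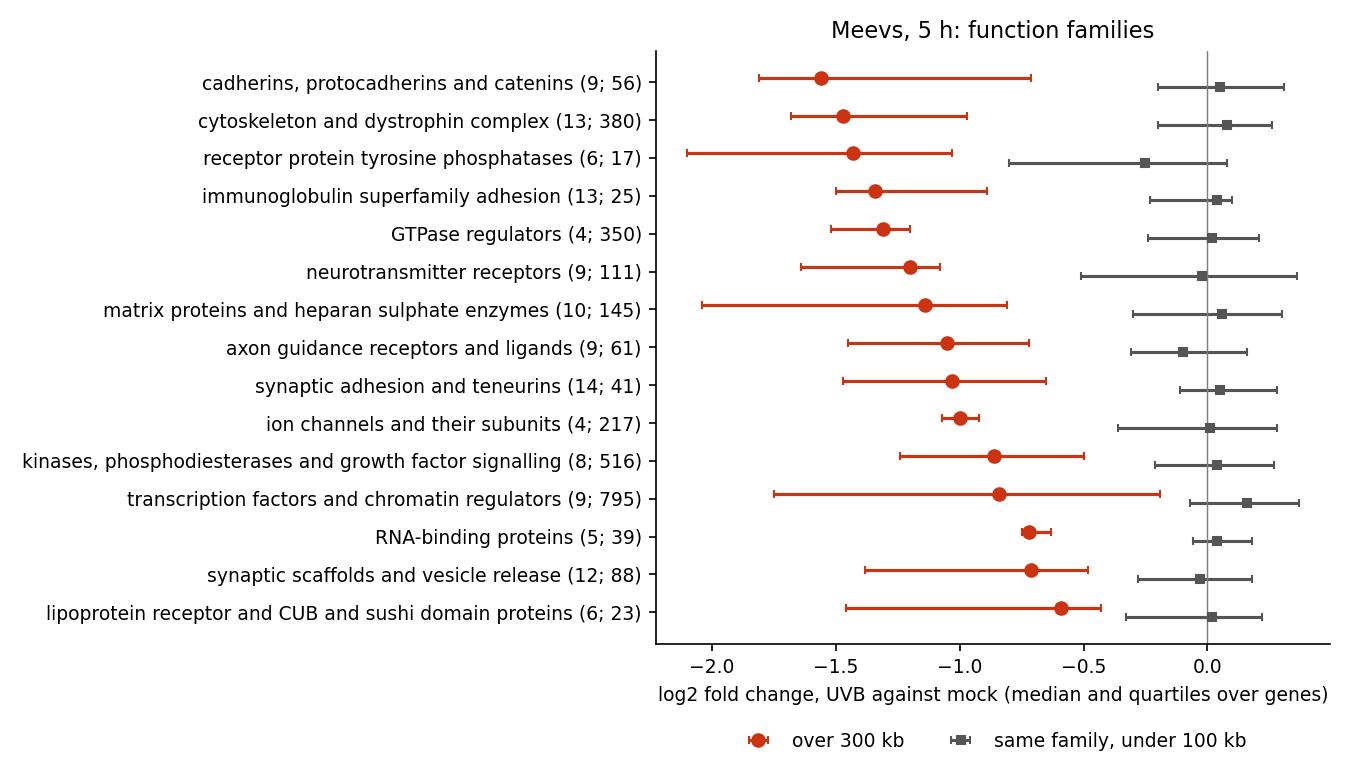
Log2 fold change of UVB against mock in Meevs at 5 h (horizontal axis) by function family (vertical axis); points are medians and bars quartiles over genes, for genes over 300 kb and for genes of the same family under 100 kb, whose numbers stand in brackets in that order. The long genes' medians run from -1.56 for cadherins to -0.59 for lipoprotein receptor and CUB and sushi domain proteins. Membrane traffic and nuclear import, with only 2 short genes, is not drawn. Phosphodiesterases and heparan sulphate enzymes stand in family labels, but none is among the long genes.

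Most genes named below were picked for groups that do not overlap, and many for low estimates or a large genotype difference. In the comparison that a gene was picked from, these traits restate the rule. The family counts at 5 h below are to be read beside the share of all tested genes that fell, 6.06% in wild type and 15.3% in Meevs. Among transcription and chromatin regulators, 5 of 9 fell in Meevs at 5 h and 2 in wild type. NPAS3 (ENSDARG00000109820, chromosome 17, 9308425 to 9894157, GRCz11, as for all positions below), a transcription factor of the bHLH-PAS family known from the developing nervous system, had the lowest estimate of all 154 genes in Meevs. Its level in wild type was 1.67, 1.84 and 2.97 CPM in mock and 0.74, 0.838 and 1.25 CPM in UVB libraries, a change of -1.14 ± 0.25, edgeR adjusted p = 0.00262. In Meevs it was 1.9, 2.39 and 2.41 CPM in mock and 0.147, 0.175 and 0.203 CPM in UVB libraries, a change of -3.64 ± 0.38, edgeR adjusted p = 2.12e-08. The UVB libraries were below every mock library in both genotypes, at low levels. Smyd3, a SET-domain methyltransferase, changed in Meevs by -1.82 ± 0.22 and gave -0.22 ± 0.20 in wild type, which did not pass. The change of aff2, of a family of transcription elongation factors, was -1.75 ± 0.23 in Meevs, and auts2a, the longest of the 4 regulators that did not pass there, gave -0.09 ± 0.11.

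All 6 receptor protein tyrosine phosphatases, membrane receptors that remove phosphate from tyrosines, fell in Meevs at 5 h, with a median of -1.43, and 5 fell in wild type, with a median of -0.58. For ptprua (ENSDARG00000092638, chromosome 19, 16222618 to 16657563) the wild type levels were 19.4, 16.6 and 18 CPM in mock and 12, 13.2 and 9.85 CPM in UVB libraries (-0.63 ± 0.13, edgeR adjusted p = 0.00111). In Meevs they were 12.8, 13.7 and 15.8 CPM in mock and 2.24, 1.6 and 1.75 CPM in UVB libraries (-2.93 ± 0.17, edgeR adjusted p = 4.18e-13). All UVB libraries were below the mock libraries in both genotypes, and the gap was wider in Meevs. Its paralog ptprub, also over 300 kb, changed by -2.20 ± 0.20 in Meevs, and the more distant ptprfa and ptprfb by -1.07 ± 0.10 and -1.02 ± 0.09.

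Of the 13 immunoglobulin superfamily adhesion proteins, 11 fell in Meevs at 5 h, with a median of -1.34, and 6 in wild type, with a median of -0.44. The lowest estimate among those averaging 1 log2 CPM or more was that of sdk1a (ENSDARG00000078866, chromosome 3, 40978997 to 41292569), a sidekick protein that matches synaptic partners in the retina of mouse and chick. Its levels in wild type were 6.95, 6.18 and 5.56 CPM in mock and 2.1, 2.97 and 3.29 CPM in UVB libraries (-1.15 ± 0.16, edgeR adjusted p = 3.13e-05). In Meevs they were 5.17, 4.92 and 5.92 and 1.29, 0.599 and 0.894 CPM (-2.57 ± 0.21, edgeR adjusted p = 2.94e-10), with no overlap in either genotype. The adhesion molecules cadm1a and cadm4 changed in Meevs by -1.83 ± 0.13 and -1.29 ± 0.09.

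Synaptic adhesion proteins fell in 2 of 14 cases in wild type and in 11 in Meevs, with medians of -0.38 and -1.03. Clstn2 (ENSDARG00000060637, chromosome 2, 39108339 to 39555667), a calsyntenin of the postsynaptic membrane, was at 0.906, 1.47 and 1.76 CPM in Meevs mock and at 0.0736, 0.2 and 0.284 CPM in Meevs UVB libraries (-2.85 ± 0.36, edgeR adjusted p = 4.99e-07). In wild type it was at 2.75, 2.36 and 2.44 CPM in mock and 1.39, 1.68 and 2.19 CPM in UVB libraries, which did not pass (-0.51 ± 0.20, edgeR adjusted p = 0.0967). The groups did not overlap in either genotype. The presynaptic neurexins nrxn3a and nrxn3b changed in Meevs by -1.52 ± 0.21 and -1.75 ± 0.23.

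Cadherins, protocadherins and catenins, which join cells through calcium-dependent contacts, fell in 6 of 9 cases in wild type and in 7 in Meevs, with medians of -0.69 and -1.56. Ctnna2 (ENSDARG00000024785, chromosome 1, 42224769 to 43039672), the neuronal alpha-catenin that ties cadherins to actin, was at 22.6, 25.6 and 27.9 CPM in wild type mock and 14, 15.2 and 17.8 CPM in wild type UVB libraries (-0.69 ± 0.09, edgeR adjusted p = 1.03e-05). In Meevs it was at 29.6, 34.3 and 32.2 CPM in mock and 6.37, 6.41 and 7.23 CPM in UVB libraries (-2.27 ± 0.10, edgeR adjusted p = 3.8e-15). The UVB libraries were the lowest in both genotypes. The catenin gene ctnnd2a, of the p120 group, changed by -0.90 ± 0.18 and -1.56 ± 0.22. The protocadherin pcdh15b was the single long gene that fell in wild type (-0.75 ± 0.22) and did not pass in Meevs (-0.37 ± 0.28), and it is named here after its values were seen.

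Of the 9 axon guidance receptors and ligands, 4 fell in wild type and 7 in Meevs. The semaphorin sema5a (ENSDARG00000058821, chromosome 24, 16393302 to 16706981) was at 16.6, 17.8 and 20.6 CPM in mock and 7.03, 10.2 and 9.4 CPM in UVB libraries of wild type (-1.05 ± 0.10, edgeR adjusted p = 2.62e-07). In Meevs the levels were 16.6, 18.2 and 17.2 and 3.75, 3.44 and 3.25 CPM (-2.31 ± 0.12, edgeR adjusted p = 5.97e-14), with no overlap in either genotype. Robo1, a receptor of Slit proteins, changed by -0.39 ± 0.10 in wild type and -1.06 ± 0.10 in Meevs, and neo1a, a receptor of netrin and repulsive guidance molecules, by -0.33 ± 0.07 and -1.45 ± 0.08.

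The cytoskeletal genes, which are not limited to neurons, had the highest number of falls in 1 family in Meevs, 12 of 13, with a median of -1.47, and 6 in wild type, with a median of -0.36. Lpp (ENSDARG00000023578, chromosome 6, 28294113 to 28690670), a LIM-domain protein of focal adhesions, was at 25.4, 21.3 and 23.3 CPM in wild type mock and 11.7, 12.2 and 11.8 CPM in wild type UVB libraries (-0.97 ± 0.10, edgeR adjusted p = 3.6e-07). In Meevs it was at 14.4, 16.6 and 17 CPM in mock and 3.39, 2.27 and 2.56 CPM in UVB libraries (-2.56 ± 0.12, edgeR adjusted p = 1.1e-14). The formin diaph2, which extends actin filaments, changed by -0.73 ± 0.08 and -2.25 ± 0.09, and the centrosomal protein gene cep112 by -0.67 ± 0.13 and -1.80 ± 0.14.

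Genes of general cell functions fell as well. All 4 GTPase regulators fell in Meevs and 3 in wild type, among them dock1, an activator of Rac (-1.85 ± 0.09 in Meevs), agap1, which acts on Arf proteins (-1.18 ± 0.08), and ralgapa2, of the complex that switches off Ral proteins (-1.41 ± 0.11). Of the 5 genes of membrane traffic and nuclear import, 4 fell in both genotypes. The nuclear import receptor gene ipo11 (ENSDARG00000054224, chromosome 8, 32028367 to 32354721) was at 45.8, 46.6 and 47.2 CPM in wild type mock and 41.6, 37.1 and 38.8 CPM in wild type UVB libraries (-0.25 ± 0.08, edgeR adjusted p = 0.0297). In Meevs it was at 36, 35.5 and 32.6 CPM in mock and 11.4, 11.1 and 12.7 CPM in UVB libraries (-1.57 ± 0.08, edgeR adjusted p = 1.48e-13), a fall to about 33.7% of mock. The vesicle traffic genes lrba and vps50 changed in Meevs by -1.50 ± 0.08 and -1.37 ± 0.13.

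**Figure D4:**
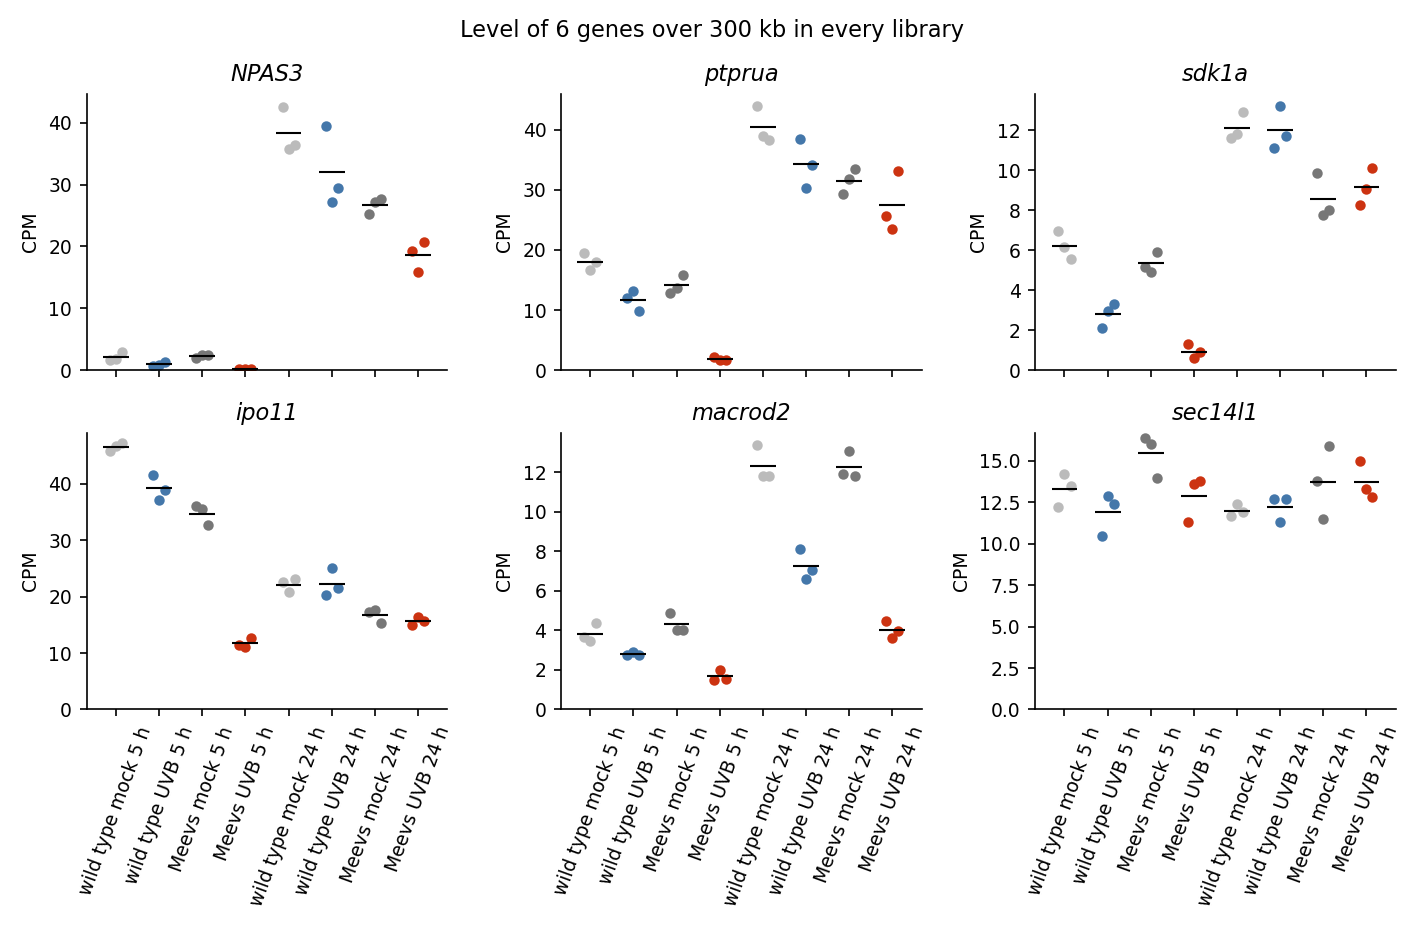
Level in CPM (vertical axes, linear and from 0) of 6 genes over 300 kb in the 8 groups (horizontal axes); grey points are mock, blue wild type UVB and red Meevs UVB libraries, and lines are means of 3. In NPAS3, ptprua, sdk1a and ipo11 the Meevs UVB libraries at 5 h are the lowest of their time, macrod2 is also low at 24 h, and in sec14l1 the groups lie close together.

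Matrix genes fell in 4 of 10 cases in wild type and in 6 in Meevs. Edil3a (ENSDARG00000093413, chromosome 5, 46658045 to 46980651), an integrin-binding matrix protein, had levels of 12, 11.4 and 12.8 CPM in wild type mock and 4.75, 5.27 and 6.25 CPM in wild type UVB libraries (-1.14 ± 0.10, edgeR adjusted p = 7.62e-08). In Meevs they were 9.79, 9.97 and 10.8 and 2.17, 2.12 and 1.95 CPM (-2.29 ± 0.12, edgeR adjusted p = 1.73e-13), and the groups did not overlap in either genotype. GALNTL6, of the family of enzymes that start O-linked glycans, changed by -1.03 ± 0.23 and -2.19 ± 0.25. Agrn, the proteoglycan that clusters acetylcholine receptors at the neuromuscular junction, changed by -0.48 ± 0.07 and -1.13 ± 0.08.

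Neurotransmitter receptors fell in 1 of 9 cases in wild type and 7 in Meevs, and ion channels in 1 of 4 and 3. Where a wild type count is 1, it rests on a single gene and says little of the family, since 6.06% of all tested genes fell there. The glutamate receptor genes gria3b and grid1a gave -1.10 ± 0.15 and -1.64 ± 0.25 in Meevs, the potassium channel gene kcnma1a -1.10 ± 0.14 and the T-type calcium channel gene cacna1g -1.07 ± 0.28, all called. Synaptic scaffolds fell in 5 of 12 cases in wild type and 9 in Meevs, with mctp1a, a membrane protein with calcium-binding C2 domains, at -1.75 ± 0.21 in Meevs and pard3bb, a polarity protein of the Par3 family, at -1.50 ± 0.15. Of the 8 genes of the kinase and growth factor signalling family, 1 fell in wild type, ntrk3a, a neurotrophin receptor (-0.53 ± 0.14). In Meevs 6 fell, ntrk3a (-1.82 ± 0.18) and BRSK2, a kinase known from neuron polarity in mouse (-1.18 ± 0.20), among them. RNA-binding proteins fell in 3 of 5 cases in wild type and 4 in Meevs. Among these msi2b, of the Musashi family, changed by -1.51 ± 0.10 in Meevs, and the splicing regulator rbfox1 by -0.63 ± 0.10. The family of lipoprotein receptors and CUB and sushi domain proteins had the smallest share of falls in Meevs, 2 of 6, with 1 in wild type; the Meevs pair were lrp1bb (-2.12 ± 0.25) and sorcs2.

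Of the 38 long genes that did not pass in Meevs at 5 h, 24 had a mean under 1 log2 CPM over all libraries, and 14 had a higher mean. Their estimates were below 0 in 31 cases and above 0 in 7. The longest of the 154 was in this group: sec14l1 (ENSDARG00000098821, chromosome 3, 59411956 to 60282382, 870.4 kb), which encodes a lipid-binding protein of the SEC14 family. It was at 16.4, 16 and 14 CPM in Meevs mock and 11.3, 13.6 and 13.8 CPM in Meevs UVB libraries (-0.26 ± 0.11, edgeR adjusted p = 0.0707). The UVB libraries were the lower ones, but the difference did not pass. In wild type it was at 12.2, 14.2 and 13.5 and 10.5, 12.9 and 12.4 CPM, and these overlapped. Of the other members among the 5 longest, the CUB and sushi domain gene csmd3a on chromosome 19 (ENSDARG00000077920) gave -0.02 ± 0.88 and the acid-sensing ion channel gene asic2 -0.87 ± 0.36, which did not pass, whereas macrod2 and ctnna2 fell.

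The annotated span of sec14l1 holds 15 other protein-coding genes, and such crowded spans were rare. No other protein-coding gene lies inside 126 of the long genes, of which 100 fell in Meevs at 5 h with a median of -1.11. Another 21 hold 1 to 4, of which 15 fell with a median of -1.33. Of the remaining 7, which hold 5 or more, 1 fell, near the 15.3% of all tested genes that fell, with a median of 0.02. The most, 65, lie inside dusp19b (794.8 kb), named here after its values were seen, which gave 0.02 ± 0.16. The sources used here do not tell whether reads were counted by strand, so values of genes that overlap others are uncertain, and the part of gene models in these values was not tested.

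The effect of UVB at 5 h was larger in Meevs than in wild type. The test of the difference between the genotypes' UVB effects called 62 of the 154 genes, all lower in Meevs, against 3.09% of all tested genes that were lower and 2.02% that were higher, and the median difference was -0.67. The estimate was lower in Meevs for 138 of the 154. By their own calls, 61 genes fell in both genotypes, 55 in Meevs without passing in wild type, 1 in wild type without passing in Meevs, and 37 in neither. The lowest differences among genes averaging 1 log2 CPM or more were those of NPAS3 (-2.50 ± 0.49, edgeR adjusted p = 0.00219), clstn2 (-2.35 ± 0.42, edgeR adjusted p = 0.000918), ptprua (-2.30 ± 0.21, edgeR adjusted p = 8.03e-08), smyd3 (-1.61 ± 0.30, edgeR adjusted p = 0.00145) and lpp (-1.59 ± 0.16, edgeR adjusted p = 2.42e-07). Wild type and Meevs libraries belong to different series, so this difference and the series cannot be told apart.

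At 24 h fewer long genes were lower after UVB in both genotypes. In wild type 6 of the 154 genes were lower after UVB and none higher, while 0.506% of all tested genes were lower and 1.74% higher, and the median was -0.22, or 86.1% of mock. In Meevs 48 were lower and none higher, while 8.84% of all tested genes were lower and 11.5% higher, and the median was -0.30, or 81.1% of mock. The wild type count depended on single libraries, between 1 and 11 with 1 library left out, lowest without replicate 2 of wild type UVB, 2 or 3 without any 1 of the mock libraries or replicate 3 of wild type UVB, and highest without replicate 1 of wild type UVB. It was 16 without the libraries that stood apart at 24 h, and with DESeq2's size factors, under which all tested genes split into 309 higher and 153 lower in place of 388 and 113, it was 8.

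The change of the UVB effect from 5 h to 24 h was tested directly. In wild type the median change was 0.21. The test passed for 18 genes there, all with a higher estimate at 24 h than at 5 h. Of all tested genes 3.26% passed in that direction. Without replicate 3 of wild type mock at 24 h the count of 18 became 11. In Meevs the median change was 0.83. The test passed for 88 genes, again all with a higher estimate at 24 h, while 15.1% of all tested genes passed in that direction. Of the 116 genes that fell in Meevs at 5 h, 71 were no longer called at 24 h and 45 were still lower. Of the 88 genes with a called change, 28 were still lower than mock at 24 h.

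The genes with the lowest estimates at 5 h were among those with the largest such change, which shares the 5 h libraries with the fall itself. For ptprua in Meevs at 24 h the levels were 29.3, 31.8 and 33.4 CPM in mock and 25.7, 23.4 and 33.2 CPM in UVB libraries, which overlapped (-0.19 ± 0.12, edgeR adjusted p = 0.269), and the change from 5 h was 2.74 ± 0.21, edgeR adjusted p = 2.8e-10. For sdk1a they were 9.87, 7.77 and 7.99 CPM in mock and 8.25, 9.05 and 10.1 CPM in UVB libraries (0.10 ± 0.14, edgeR adjusted p = 0.666), with a change from 5 h of 2.68 ± 0.26, edgeR adjusted p = 1.37e-08. NPAS3, at 25.2, 27.2 and 27.6 CPM in mock and 19.3, 15.8 and 20.7 CPM in UVB libraries, was still lower (-0.51 ± 0.14, edgeR adjusted p = 0.00724), with a change from 5 h of 3.13 ± 0.41, edgeR adjusted p = 2.26e-06. Clstn2 and lpp changed by 2.60 ± 0.41 and 2.31 ± 0.16. In wild type the highest changes among the called genes averaging 1 log2 CPM or more were those of agbl1, a carboxypeptidase that trims glutamates from proteins such as tubulin (1.37 ± 0.29, edgeR adjusted p = 0.00504), sdk1a (1.14 ± 0.21, edgeR adjusted p = 0.00125), pcdh15a (0.95 ± 0.26, edgeR adjusted p = 0.0343), edil3a (0.92 ± 0.14, edgeR adjusted p = 8.5e-05) and lpp (0.87 ± 0.13, edgeR adjusted p = 0.000172). At 24 h agbl1 had 84, 62 and 43 counts in wild type mock and 125, 90 and 126 in wild type UVB libraries. Its change thus went past the mock level, though no long gene was called higher at that time.

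The estimated change from 5 h to 24 h was below 0 for 26 of the 154 genes in wild type and for 17 in Meevs, and none of these passed. Macrod2, which was among them in both genotypes (ENSDARG00000032601, chromosome 13, 33703784 to 34558921, 855.1 kb), is the second longest of the 154 and encodes an enzyme that removes ADP-ribose from proteins. At 5 h it was at 3.65, 3.48 and 4.36 CPM in wild type mock and 2.75, 2.9 and 2.77 CPM in wild type UVB libraries (-0.45 ± 0.13, edgeR adjusted p = 0.0268). At 24 h these were 13.4, 11.8 and 11.8 and 8.12, 6.62 and 7.07 CPM (-0.76 ± 0.11, edgeR adjusted p = 6.5e-05). In Meevs the 5 h levels were 4.87, 4.04 and 4.01 CPM in mock and 1.51, 2 and 1.54 CPM in UVB libraries (-1.33 ± 0.15, edgeR adjusted p = 8.47e-08), and those at 24 h were 11.9, 13.1 and 11.8 and 4.49, 3.63 and 3.95 CPM (-1.61 ± 0.12, edgeR adjusted p = 1.28e-10). The UVB libraries lay below the mock libraries in all 4 comparisons. The change from 5 h to 24 h did not pass in wild type (-0.31 ± 0.17) or in Meevs (-0.27 ± 0.20).

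The 6 genes lower in wild type at 24 h were macrod2, cdh13, clstn2, csmd2, fstl5 and astn1, and of these macrod2, cdh13, fstl5 and astn1 were also lower in Meevs at 24 h. At that time cdh13 (ENSDARG00000014215, chromosome 18, 13792490 to 14134035), a cadherin anchored to the membrane by a lipid, was at 12.2, 13.1 and 11.3 CPM in Meevs mock and 5.47, 4.99 and 5.21 CPM in Meevs UVB libraries (-1.23 ± 0.12, edgeR adjusted p = 1.09e-08). In wild type it was at 11.4, 12.1 and 11.7 and 8.85, 7.57 and 8.87 CPM (-0.48 ± 0.11, edgeR adjusted p = 0.0136). The next lowest in Meevs at 24 h by the rule for named genes were the teneurin gene TENM2 on chromosome 21 (ENSDARG00000011171), at -0.93 ± 0.13, astn1, which in mouse helps young neurons migrate along glia, at -0.79 ± 0.11, and grid1a at -0.77 ± 0.18.

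The members lower in Meevs at 24 h, including 3 that had not passed at 5 h (asic2, spon1a and zfpm2a, the last pair named after their values were seen), are counted here by role, where 8.84% of all tested genes were lower. Differences between families were not tested. Ion channels were lower in 3 of 4 cases (median -0.61), neurotransmitter receptors in 4 of 9 (-0.66), matrix proteins in 5 of 10 (-0.49), cadherins and catenins in 4 of 9 (-0.37) and immunoglobulin superfamily adhesion proteins in 5 of 13 (-0.32). Cytoskeletal genes were lower in 2 of 13 cases (-0.16), synaptic scaffolds in 1 of 12 (-0.09), receptor tyrosine phosphatases in 1 of 6 (-0.07) and the kinase and growth factor signalling family in none of 8 (-0.19), shares that lie nearer to that of all tested genes. The change from 5 h to 24 h in Meevs passed for 11 of 13 cytoskeletal genes, for all 4 GTPase regulators, for 5 of 6 receptor tyrosine phosphatases and for 3 of 9 neurotransmitter receptors, where 15.1% of all tested genes passed in that direction. Examples that were no longer called are dock1 (0.07 ± 0.08), agrn (0.10 ± 0.07) and ipo11 (-0.10 ± 0.08), and examples that were still lower are sema5a (-0.56 ± 0.10), lrp1bb (-0.62 ± 0.17), GALNTL6 (-0.58 ± 0.14) and cacna1g (-0.54 ± 0.18).

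The genotypes' UVB effects at 24 h differed for 3 long genes, all lower in Meevs, where 0.739% of all tested genes were lower and 1.66% higher. The count was 5 with DESeq2 and 5 with the compared libraries alone. The 3 genes called in the main test were macrod2 (-0.85 ± 0.16, edgeR adjusted p = 0.00311), cdh13 (-0.75 ± 0.16, edgeR adjusted p = 0.00811) and ctnna2 (-0.54 ± 0.12, edgeR adjusted p = 0.0081). For ctnna2 the Meevs levels at 24 h were 71.7, 67.6 and 73.8 CPM in mock and 42.5, 39.1 and 44.6 CPM in UVB libraries, and the wild type levels 71.7, 67.5 and 63.6 and 61.7, 56.5 and 57 CPM. The UVB libraries were lowest in both genotypes, and the gap was wider in Meevs.

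Mock embryos differed too. In mock Meevs at 5 h, 73 of the 154 genes were lower than in mock wild type and 7 were higher, with a median of -0.41, where 23.2% of all tested genes were lower and 24.5% higher. At 24 h 107 were lower and 3 higher, with a median of -0.50, where 26.2% were lower and 26.5% higher. The 3 higher genes at 24 h, named after their values were seen, were enox2, which encodes a cell surface oxidase (0.41 ± 0.09), GALNTL6 (0.37 ± 0.13) and smyd3 (0.50 ± 0.19). Other protein-coding genes differed by span in this comparison as well, from a median of 0.24 for genes of up to 10 kb to -0.40 for those of 200 to 300 kb at 5 h, and from 0.28 to -0.46 at 24 h. These values share their mock libraries with the UVB effects. With the series not separable from genotype, their part in the result cannot be told apart.

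The long genes rose with age in mock embryos. From 29 hpf to 48 hpf, 109 of 154 rose and 11 fell in wild type, with a median of 1.05, where 30.2% of all tested genes rose and 33.5% fell. In Meevs 103 rose and 11 fell, with a median of 1.0, where 28.7% rose and 31.5% fell. After UVB, 15.3% of all tested genes fell in Meevs at 5 h. There, 84 of the 109 genes that rose with age in wild type fell after UVB, with a median of -1.11. Of the 45 that did not rise, 32 fell after UVB. Of the 11 that fell with age, 8 fell after UVB, with a median of -1.50. Ipo11 and lrba, which dropped with age in wild type (-1.07 ± 0.08 and -0.23 ± 0.07), and NPAS3, which rose (4.16 ± 0.17), were all lower after UVB at 5 h in both genotypes.

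Many zebrafish genes have an a and a b copy from an ancient genome duplication, and for 24 of the long genes the other copy spans under 100 kb. In Meevs at 5 h, 14 of the 24 long copies fell, with a median of -0.72, whereas of the short copies 5 fell and 3 rose, with a median of 0.00, near the 15.3% and 19.1% of all tested genes that fell and rose. The long copy was the lower in 20 of 24 pairs, and not in those of dusp19b, pard3bb, nrxn2a and sash1a. Nrxn2b (96.7 kb) fell as nrxn2a did (-1.04 ± 0.19 and -0.96 ± 0.17). Both copies averaged 1 log2 CPM or more in only 13 of the 24 pairs, and low counts make a call less likely. In wild type 5 long copies and 1 short copy fell, with medians of -0.24 and -0.21, where 6.06% of all tested genes fell. Differences between copies were not tested.

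The 5 pairs with the largest ratio of spans, among those in which both copies averaged 1 log2 CPM or more, gave the following values. Macf1a, a linker of actin and microtubules, fell in Meevs at 5 h (-0.39 ± 0.10, edgeR adjusted p = 0.00409), and its copy macf1b, annotated at 3 kb, rose (0.56 ± 0.16, edgeR adjusted p = 0.00955). Whether the annotation of macf1b holds the whole gene was not tested, and the ratio of this pair rests on it. For the synaptic adhesion gene nlgn3a the change was -1.09 ± 0.16, edgeR adjusted p = 7.61e-06, against -0.14 ± 0.13, edgeR adjusted p = 0.456 for nlgn3b (33.6 kb). Arvcfb, a catenin of the p120 group, fell (-0.71 ± 0.08, edgeR adjusted p = 3.65e-08), and arvcfa (38.4 kb) gave -0.12 ± 0.27, edgeR adjusted p = 0.782. In the remaining pairs the long copy did not pass: auts2a gave -0.09 ± 0.11, edgeR adjusted p = 0.56 and auts2b (19.4 kb) 0.16 ± 0.07, edgeR adjusted p = 0.0733, and cntnap2a gave -0.20 ± 0.27, edgeR adjusted p = 0.604 and cntnap2b (95.7 kb) 0.10 ± 0.11, edgeR adjusted p = 0.519.

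**Figure D5:**
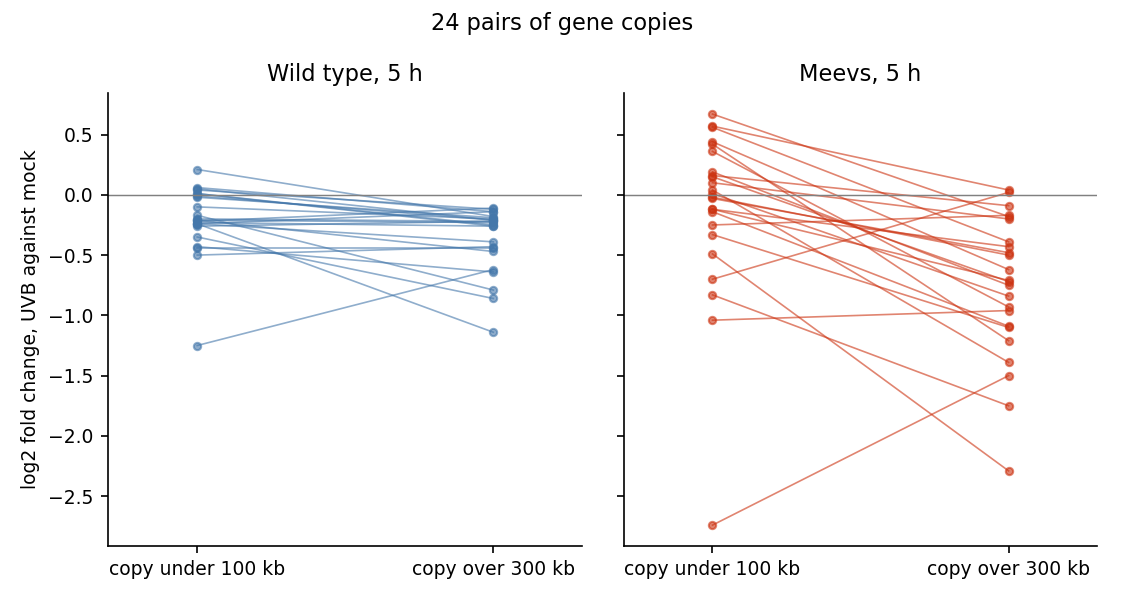
Log2 fold change of UVB against mock at 5 h (vertical axis) of the copy under 100 kb and of the copy over 300 kb (horizontal axis) of 24 gene pairs in wild type and Meevs; a line joins the copies of a pair. In Meevs the line goes down from the short to the long copy in 20 of 24 pairs, with medians of 0.00 and -0.72. Both copies averaged 1 log2 CPM or more in 13 of the pairs.

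Since many long genes act in neurons, short genes known as neuron markers were read beside them. At 5 h, 6.06% of all tested genes were lower in wild type and 15.3% in Meevs. Of 32 neuron markers under 100 kb, 1 was lower and none higher in each genotype at that time, with medians of -0.15 in wild type and -0.01 in Meevs. Their summed level was 1831 to 2172 CPM in Meevs mock and 2029 to 2072 CPM in Meevs UVB libraries at 5 h, and no marker was at 0 throughout either group, while 1 was at 0 in all wild type mock libraries at 5 h. Of 21 short neural progenitor markers, 2 (9.52%) were higher and none lower in Meevs at 5 h, where 19.1% of all tested genes were higher. The summed levels of these markers were 4214 to 4687 CPM in mock and 4783 to 4948 CPM in UVB libraries. Of 26 short skeletal muscle genes, 1 was higher and 4 lower, with summed levels of 51490 to 65690 and 43410 to 51790 CPM. The share of lower muscle genes, 15.4%, was near the 15.3% of all tested genes. However, 23 of the 26 estimates were below 0, with a median of -0.22, where the median of all tested genes was 0.05.

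At 24 h many neuron markers were lower after UVB in Meevs, as many long genes were. Of the 32 markers, 13 (40.6%) were lower, with a median of -0.23, where 8.84% of all tested genes were lower. The markers' summed level was 4588 to 4820 CPM in Meevs mock and 3604 to 3834 CPM in Meevs UVB libraries. Their part in the 48 long genes that were lower in Meevs at 24 h was not tested. In wild type at 24 h no marker passed, where 0.506% of all tested genes were lower. The markers' median was -0.17, with summed levels of 4615 to 4923 CPM in mock and 4103 to 4509 CPM in UVB libraries. In Meevs the change of the UVB effect from 5 h to 24 h went opposite ways in the 2 sets. It passed downward for 8 of the 32 markers and upward for none, with a median of -0.22. For the long genes it passed upward for 88 of 154 and downward for none, with a median of 0.83. Of all tested genes, 14.3% passed downward and 15.1% upward.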

How the data were processed

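Gene counts of 24 polyA-selected, directional libraries of whole zebrafish embryos were used as the authors deposited them, as raw counts per gene. The submitters' processing notes name cutadapt 1.16, STAR 2.7.9a, featureCounts 1.6.3, DESeq2 1.36.0 and the build GRCz11, with no settings or order. Starts, ends and biotypes came from the deposited annotation sheet. Strand use in counting is not stated.

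Genes were tested with edgeR 4.0.16 in R 4.3.3 by the quasi-likelihood F-test, with TMM scaling, filterByExpr, 1 mean per group over all 24 libraries and Benjamini-Hochberg adjustment over all 22340 tested genes of each of 12 comparisons. SE is the estimate over the root of F, CPM are counts per 1000000 of the TMM-scaled library, and log2 CPM have a prior count of 2. The main fit was tried on simulated counts for 1 comparison, UVB against mock in Meevs at 5 h, and the other steps were not. Families were assigned by symbol patterns and, for 29 genes, by hand. Named genes had an adjusted p under 0.05, an average of 1 log2 CPM or more and, for comparisons of 2 groups, no overlap between groups: the 10 lowest at 5 h and 5 lowest at 24 h per genotype, the 5 largest differences and recoveries, and the 3 of smallest adjusted p per family in Meevs at 5 h. The 5 longest, those at the span limit and the 5 copy pairs with the largest span ratio were named whatever their call. Named genes outside these rules, pcdh15b, spon1a, zfpm2a, enox2, dusp19b, nrxn2a and sash1a, were chosen after values were seen. The members, lists, families and tests were all chosen with earlier results of these data known. Replicates with the same number did not vary together (correlations of -0.08 to 0.11), so the main tests have no replicate block. Replicate libraries of each group differed by more than sampling noise (chi-square per degree of freedom from 4.28 to 23.2). Alternatives were DESeq2 1.42.0, its size factors, no count filter, a replicate block, fewer libraries, other span limits and an offset by gene span (lowess, span 0.3).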

Additional observations from a re-analysis of the deposited data

Results flagged for a closer look

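The interaction term of genotype and UVB at 5 h passed for 62 of the 154 long genes, all lower in Meevs, where 3.09% of all tested genes were lower and 2.02% higher. Among the named genes the differences of the log2 fold changes, Meevs minus wild type, were -2.50 for NPAS3, -2.35 for clstn2, -2.30 for ptprua, -1.61 for smyd3 and -1.59 for lpp.

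At 24 h the same interaction passed for 3 of the 154 long genes, with differences of -0.85 for macrod2, -0.75 for cdh13 and -0.54 for ctnna2. These are 1.95% of the long genes, where 0.739% of all tested genes were lower and 1.66% higher.

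The UVB effect at 24 h differed from that at 5 h, by a test of the difference itself, for 18 long genes in wild type, with 1.37 for agbl1, 1.14 for sdk1a, 0.95 for pcdh15a, 0.92 for edil3a and 0.87 for lpp as the highest of the called named genes. In Meevs it differed for 88 long genes, with 3.13 for NPAS3, 2.74 for ptprua, 2.68 for sdk1a, 2.60 for clstn2 and 2.31 for lpp. Of all tested genes, 3.26% passed upward and 1.62% downward in wild type, and 15.1% and 14.3% in Meevs. No group had 4 or more libraries, so single libraries were not tested as outliers.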

How the results depend on the processing

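The fall at 5 h kept its direction in both genotypes under DESeq2, its size factors, no count filter, fewer libraries and other span limits, with no long gene called higher for the 300 kb limit. The gene span offset removes by construction a smooth trend of change with gene span, which at the long end also draws on shorter genes. Calls under it are counted here in both directions together, and all-gene counts are given above for the UVB effects at 5 h only. The other counts thus do not tell how the long genes stood against all tested genes. The called genes in wild type and Meevs were 16 and 71 at 5 h and 2 and 30 at 24 h. There were 22 for the genotype difference at 5 h, 9 and 54 for the change from 5 h to 24 h, and 70 for genotype in mock at 24 h. The medians were then, in the same order, -0.03 and -0.17, -0.04 and -0.09, -0.13, and -0.02 and 0.12; in mock they were 0.07 and 0.08 for genotype at 5 h and 24 h, and 0.24 and 0.28 for age in wild type and Meevs. It turned the sign of 26 of 480 named values, 12 of them past the threshold, and no other setting turned any. At 5 h in wild type these became 0.38 for sec14l1, 0.09 for macrod2, 0.07 for robo1, 0.05 for rbfox3a, 0.03 for cadm1a, 0.12 for rbfox1, 0.05 for neo1a, 0.13 for ipo11 and 0.03 for anks1b. In Meevs they became 1.07 for sec14l1, 0.69 for csmd2, 0.05 for robo1, 0.47 for rbfox3a, 0.38 for rbfox1, 0.08 for astn1, 0.12 for arvcfb, 0.11 for TMEM8B and 0.45 for macf1a. The genotype difference of sec14l1 became 0.69, and the Meevs changes from 5 h to 24 h became -0.72 for sec14l1, -0.79 for csmd2, -0.42 for rbfox3a, -0.57 for rbfox1, -0.64 for astn1, -0.10 for cdh13 and -0.22 for macf1a.

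A lower limit of 200 kb adds 300 genes of 200 to 300 kb to the 154, and counts here join lower and higher calls. Of the added genes, 65% were lower and 0.667% higher in Meevs at 5 h. Of the 154, 75.3% were lower, and of all tested genes 15.3%. This limit gave 155 and 313 called genes at 5 h in wild type and Meevs (medians -0.33 and -0.82) and 112 in Meevs at 24 h (-0.19). It gave 146 (-0.51) and 8 for the genotype difference at 5 h and 24 h, and 36 and 227 for recovery (0.63 in Meevs). For genotype in mock it gave 248 and 310, and for age 341 and 314 (0.72 and 0.68). A limit of 500 kb, which leaves 28 genes, gave 13 and 17 at 5 h (-1.19 in Meevs) and 2 and 10 at 24 h (-0.39 in Meevs). It gave 9 for the genotype difference at 5 h, 3 and 13 for recovery, 10 (-0.24) and 19 for genotype in mock, and 22 (1.78) and 21 (1.46) for age.

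The Meevs median at 5 h was -1.19 with the compared libraries alone and also without the 2 libraries at 5 h that stand apart. Without those at 24 h, 16 genes were called in wild type at 24 h and the Meevs median was -0.40. For the genotype difference at 24 h, 5 genes were called with the compared libraries alone and 5 with DESeq2, and DESeq2 called 11 in wild type at 24 h. The cause of these shifts was not tested. Leaving out 1 library at a time gave 39 to 65 genes in wild type at 5 h, 1 to 11 at 24 h and 11 to 22 for the wild type recovery; medians ran from -1.19 to -1.07 in Meevs at 5 h, -0.40 to -0.29 in Meevs at 24 h, -0.76 to -0.61 and -0.18 to -0.04 for the genotype difference at 5 h and 24 h, and 0.99 to 1.12 for age in Meevs.

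Same-numbered replicates share only a number. With the replicate number as a block, 69 and 116 genes were called at 5 h in wild type and Meevs, 6 and 54 at 24 h, 64 and 4 for the genotype difference, and 18 and 88 for recovery; the block was not run for genotype in mock and for age, whose groups lie in different blocks. Of the 115 genes that averaged 1 log2 CPM or more, 101 fell in Meevs at 5 h, and 24 of the 38 that did not pass averaged less; the part of depth in this was not tested.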
